A study of Homo sapiens with 6 samples.

Results

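The genes described are 10 subunits and feedback genes of the NF-kB pathway, chosen by symbol: NFKB1, NFKB2, REL, RELA, RELB, NFKBIA, NFKBIE, TNFAIP3, BIRC3 and BCL3. Each symbol matched 1 row, so they are 10 of the 27328 loci of the deposited expression table. They were measured in 6 mRNA sequencing libraries of SACC-83 cells, an established line derived from a human adenoid cystic carcinoma, a cancer of the salivary glands. The OE group is 3 libraries of cells overexpressing circMYBL1, a circular RNA whose host gene is MYBL1, and the Vec group is 3 libraries titled Vec whose genotype label reads WT, taken here as the vector control. In the OE group the genotype label changes with the library, reading circMYBL1 for replicate 1, circMYBL2 for replicate 2 and circMYBL3 for replicate 3, while all 3 titles read OE. They were kept as replicates with that doubt. Whether libraries of a group came from separate cultures is not stated, so a p-value here reflects only how far these libraries vary, and that variation may be technical. No further agent or allele is named. In bulk libraries such as these, fewer cells of a type and less RNA per cell cannot be told apart.

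NF-kB is a family of dimeric transcription factors. RELA, RELB and REL carry a transactivation domain, whereas NFKB1 and NFKB2 encode precursors that are processed to DNA-binding subunits without one. In resting cells IkB proteins such as NFKBIA and NFKBIE hold the dimers in the cytoplasm. Signals from receptors for tumor necrosis factor, interleukin-1 or microbial products lead to IkB degradation in the canonical branch, and receptors such as LTBR use the noncanonical branch, which yields dimers of RELB with processed NFKB2. Many of the genes that the dimers switch on encode parts of the pathway itself, among them NFKBIA, TNFAIP3 and BIRC3, which makes their mRNA a common readout of feedback.

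Promoter sequence is shown because NF-kB dimers are known to bind a common DNA element, the kappaB site. RefSeq start sites on GRCh38.p14 gave 12 windows for 8 of the 10 genes, each with 250 bases before and 50 after the start. RELB and NFKBIE had no window. The windows were searched for the 10-base kappaB consensus on both strands, counting overlapping matches. A match was found in 8 of the 12 windows and in 7 of the 8 genes, against 11.3% of all 35116 promoter windows and 13.3% of all 27305 genes with a window. The genes were chosen as NF-kB subunits and feedback genes, and the windows compared were not matched for GC content. The contrast was not tested. A match describes these letters only and is no evidence of binding. The stretches below run 5′ to 3′ on the strand of the gene, are 120 bases each, and have the matches in capitals. They lie at chr4:102501239-102501358 (plus strand) for NFKB1, chr10:102394458-102394577 (plus) for NFKB2, chr2:60881454-60881573 (plus) for REL, chr14:35404750-35404869 (minus) for NFKBIA, chr6:137867139-137867258 (plus) for TNFAIP3 and chr11:102317274-102317393 (plus) for BIRC3.
NFKB1: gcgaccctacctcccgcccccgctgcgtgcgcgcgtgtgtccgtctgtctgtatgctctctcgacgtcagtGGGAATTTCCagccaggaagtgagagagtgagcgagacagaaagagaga
NFKB2: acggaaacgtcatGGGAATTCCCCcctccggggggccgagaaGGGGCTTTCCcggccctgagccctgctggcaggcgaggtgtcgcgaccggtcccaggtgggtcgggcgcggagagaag
REL: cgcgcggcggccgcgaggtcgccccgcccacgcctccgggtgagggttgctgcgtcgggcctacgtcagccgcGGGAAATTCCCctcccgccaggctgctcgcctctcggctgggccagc
NFKBIA: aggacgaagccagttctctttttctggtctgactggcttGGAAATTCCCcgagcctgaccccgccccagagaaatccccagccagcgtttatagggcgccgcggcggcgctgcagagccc
TNFAIP3: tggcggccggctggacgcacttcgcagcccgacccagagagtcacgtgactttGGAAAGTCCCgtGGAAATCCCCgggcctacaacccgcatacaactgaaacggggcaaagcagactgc
BIRC3: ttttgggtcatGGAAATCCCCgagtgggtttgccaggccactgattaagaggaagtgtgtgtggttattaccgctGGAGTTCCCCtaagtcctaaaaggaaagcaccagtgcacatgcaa
Positions count from the start site, with negative numbers before it. REL carried a pair of matches that overlap on opposite strands, the first at -47 to -38, which by the GENCODE start are already within the gene. NFKB1 had GGGAATTTCC at -49 to -40. NFKBIA had the same letters on the other strand at -81 to -72. TNFAIP3 held GGGACTTTCC at -67 to -58 and GGGGATTTCC at -55 to -46, both on the other strand and likewise within the gene. GGGGATTTCC recurred on the other strand of BIRC3 at -199 to -190, with a second match at -135 to -126. The NFKB2 stretch shown precedes its second RefSeq start and so lies within the gene. In BCL3 the stretch at 3 to 12 matched on both strands, also within the GENCODE gene, and is not printed. Neither RELA window held a match. Matches were present in genes that were high and in genes that were low in the libraries numbered 2, described further on. Any link between the matches and these levels was not tested.

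**Figure D1:**
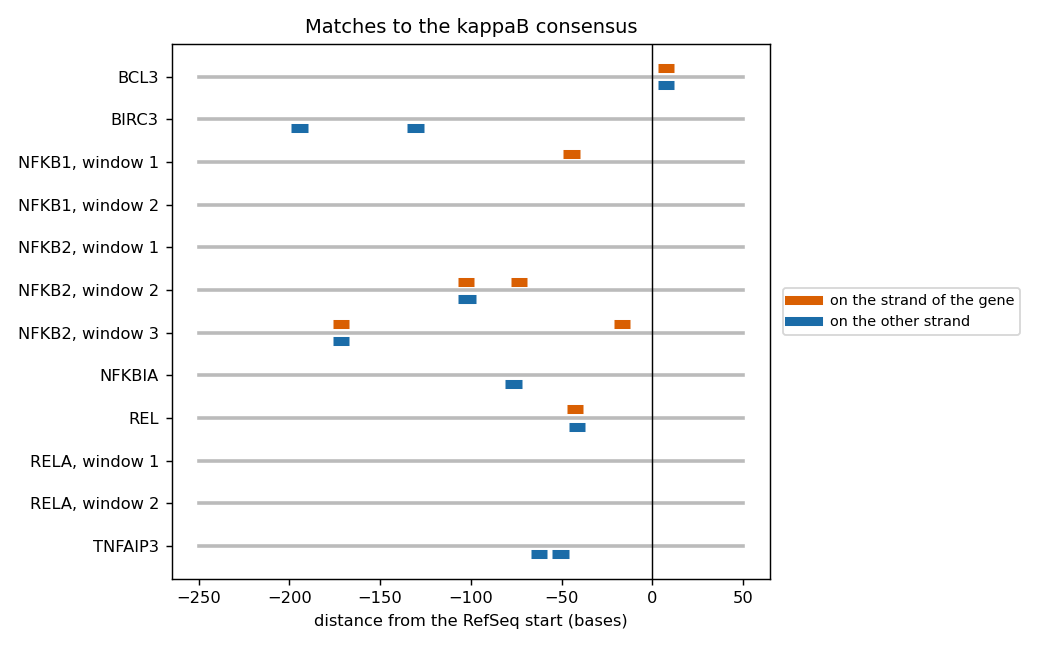
Position of matches to the kappaB consensus in the 12 RefSeq promoter windows of 8 genes, in bases from the start site. Orange marks lie on the strand of the gene and blue marks on the other strand. Matches fell in 8 windows, and both RELA windows were empty.

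Levels are in FPKM, fragments scaled by gene length and by the library's total, as deposited. Read depth is unknown from such values, so no counting error is given. Summed FPKM per library was 379404 to 408826 in OE and 371776 to 393350 in Vec. MYBL1, the host gene of the circle, read 359, 44.0 and 2025 FPKM in OE replicates 1, 2 and 3, against 9.04, 7.15 and 10.3 FPKM in Vec replicates 1, 2 and 3, and this gene-level value does not measure the circle itself. Of the epithelial markers, EPCAM, KRT8 and KRT18 were at 76.3 FPKM or more in each library, CDH1 read 8.61 to 21.3 FPKM, and KRT19 did not exceed 1.10. Of the salivary and adenoid cystic markers, KIT and AQP5 were listed at 0 in all 6 libraries and MYB did not exceed 1.21, whereas KRT7, KRT14 and TP63 were at 11.7 or more. Of the markers of other cell types, PTPRC and CD3E (leukocytes) were listed at 0 and COL3A1 (fibroblasts) and CDH5 (endothelium) did not exceed 0.138, whereas CD68 read 6.49 to 10.8 FPKM, COL1A1 2.95 to 11.1 and PECAM1 up to 1.27. For tests, the 12064 loci that reached an FPKM of 1 in 3 or more libraries were put on the log2(FPKM + 1) scale and fitted with limma, and a gene was called where its p, adjusted over all of them by Benjamini-Hochberg, was under 0.05. All 10 genes were among the 12064.

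In SACC-83 cells NFKBIA was the most abundant of the 10 mRNAs and REL the least. NFKBIA averaged 58.2 ± 21.1 FPKM in OE and 59.1 ± 27.0 FPKM in Vec (SD, n = 3 each), which put it above 91.2% of the loci tested. RELA followed at 31.5 ± 6.25 FPKM in OE and 27.7 ± 4.36 FPKM in Vec. NFKB2, TNFAIP3 and NFKB1 had means between 19.4 and 26.6 FPKM. BIRC3 averaged 12.9 ± 8.42 FPKM in OE and 13.6 ± 10.1 FPKM in Vec. BCL3, RELB and NFKBIE had lower means, between 3.58 and 8.35 FPKM, and REL averaged 2.09 ± 1.20 FPKM in OE and 2.67 ± 1.31 FPKM in Vec. The lowest NFKBIA value exceeded the highest RELA value in both groups. Of the other neighbours in this order, RELA was above NFKB2, BIRC3 above BCL3 and RELB above NFKBIE in 6 of 6 libraries although their ranges overlapped. NFKB2 with TNFAIP3, TNFAIP3 with NFKB1, NFKB1 with BIRC3, BCL3 with RELB and NFKBIE with REL changed places between libraries, although the OE ranges of NFKBIE and REL did not overlap.

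The transactivating subunits differed in which libraries were high. RELA (ENSG00000173039, chromosome 11, 65653596 to 65663094, minus strand) is the main transactivator of the canonical branch. It read 36.2, 24.4 and 33.8 FPKM in OE replicates 1, 2 and 3, and 27.8, 23.3 and 32.0 FPKM in Vec replicates 1, 2 and 3. The lowest library of each group was number 2, and the groups overlapped. RELB (ENSG00000104856, chromosome 19, 45001430 to 45038198, plus strand), the partner of processed NFKB2, read 11.1, 4.40 and 7.13 FPKM in OE replicates 1, 2 and 3, and 6.14, 4.18 and 7.27 FPKM in Vec replicates 1, 2 and 3. OE replicate 1 stood above the other 5, number 2 was again lowest in both groups, and the groups overlapped. REL (ENSG00000162924, chromosome 2, 60881521 to 60931610, plus strand), a subunit best known from lymphocytes, read 0.806, 3.19 and 2.26 FPKM in OE replicates 1, 2 and 3, and 1.47, 4.06 and 2.47 FPKM in Vec replicates 1, 2 and 3. Here number 2 was highest and number 1 lowest in both groups, and the groups overlapped. REL shares 5702 exonic bases with AC010733.2 on the same strand, a locus without a row among the deposited values. How reads from the shared bases were counted is not given.

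The precursor genes followed RELA. NFKB1 (ENSG00000109320, chromosome 4, 102501329 to 102617302, plus strand) read 23.1, 17.8 and 21.6 FPKM in OE replicates 1, 2 and 3, and 21.2, 15.1 and 22.0 FPKM in Vec replicates 1, 2 and 3. NFKB2 (ENSG00000077150, chromosome 10, 102394110 to 102402529, plus strand) read 34.0, 17.1 and 28.7 FPKM in OE replicates 1, 2 and 3, and 22.1, 13.0 and 24.6 FPKM in Vec replicates 1, 2 and 3. Both were lowest in number 2 of each group, and the groups overlapped. The 5 subunits summed to 105, 66.9 and 93.5 FPKM in OE replicates 1, 2 and 3 and to 78.7, 59.6 and 88.2 FPKM in Vec replicates 1, 2 and 3. RELA made up 34.4% to 36.4% of that sum in OE and 35.3% to 39.0% in Vec, so its share varied little. REL took 4.77% in OE replicate 2 and 6.81% in Vec replicate 2, against 0.767% to 2.80% in the libraries numbered 1 and 3.

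Of the IkB inhibitors, NFKBIA and NFKBIE did not share a pattern. NFKBIA (ENSG00000100906, chromosome 14, 35401511 to 35404749, minus strand), which is itself induced by NF-kB and ends its activity, read 52.2, 81.7 and 40.7 FPKM in OE replicates 1, 2 and 3, and 46.3, 90.1 and 40.7 FPKM in Vec replicates 1, 2 and 3. Number 2 was highest and number 3 lowest in both groups. Per summed subunit FPKM, NFKBIA stood at 1.22 in OE replicate 2 and 1.51 in Vec replicate 2, against 0.435 to 0.589 in the libraries numbered 1 and 3. NFKBIE (ENSG00000146232, chromosome 6, 44258166 to 44265788, minus strand), which also retains dimers in the cytoplasm, read 6.18, 4.04 and 3.31 FPKM in OE replicates 1, 2 and 3, and 3.63, 2.76 and 4.35 FPKM in Vec replicates 1, 2 and 3. No replicate number was highest or lowest in both groups. BCL3 (ENSG00000069399, chromosome 19, 44747705 to 44760044, plus strand), a nuclear IkB-like protein that acts with NFKB1 or NFKB2 dimers on DNA, read 5.09, 11.5 and 6.49 FPKM in OE replicates 1, 2 and 3, and 4.42, 13.3 and 7.31 FPKM in Vec replicates 1, 2 and 3. It was highest in number 2 and lowest in number 1 of each group.

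The feedback regulators upstream of the dimers moved in opposite directions between replicate numbers. TNFAIP3 (ENSG00000118503, chromosome 6, 137867188 to 137883312, plus strand), a ubiquitin-editing enzyme that dampens signaling from tumor necrosis factor receptors, read 34.1, 10.7 and 24.8 FPKM in OE replicates 1, 2 and 3, and 26.0, 10.3 and 26.7 FPKM in Vec replicates 1, 2 and 3. Number 2 was lowest in both groups. BIRC3 (ENSG00000023445, chromosome 11, 102317450 to 102339403, plus strand), a ubiquitin ligase recruited to those receptors, read 6.01, 22.3 and 10.5 FPKM in OE replicates 1, 2 and 3, and 6.10, 25.0 and 9.62 FPKM in Vec replicates 1, 2 and 3. Number 2 was highest and number 1 lowest in both groups. The ratio of BIRC3 to TNFAIP3 was 2.08 in OE replicate 2 and 2.43 in Vec replicate 2, against 0.176 to 0.425 in the libraries numbered 1 and 3. How reads shared between BIRC3 and its paralog BIRC2 were counted is not given in the sources used here, and BIRC2 lay between 12.8 and 18.8 FPKM in all 6 libraries. TNFAIP3 shares 95 exonic bases with an antisense locus, AL357060.1, RELA shares 9 with AP001362.2 and BCL3 contains the microRNA MIR8085, and the strand setting of the counting is not given either.

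**Figure D2:**
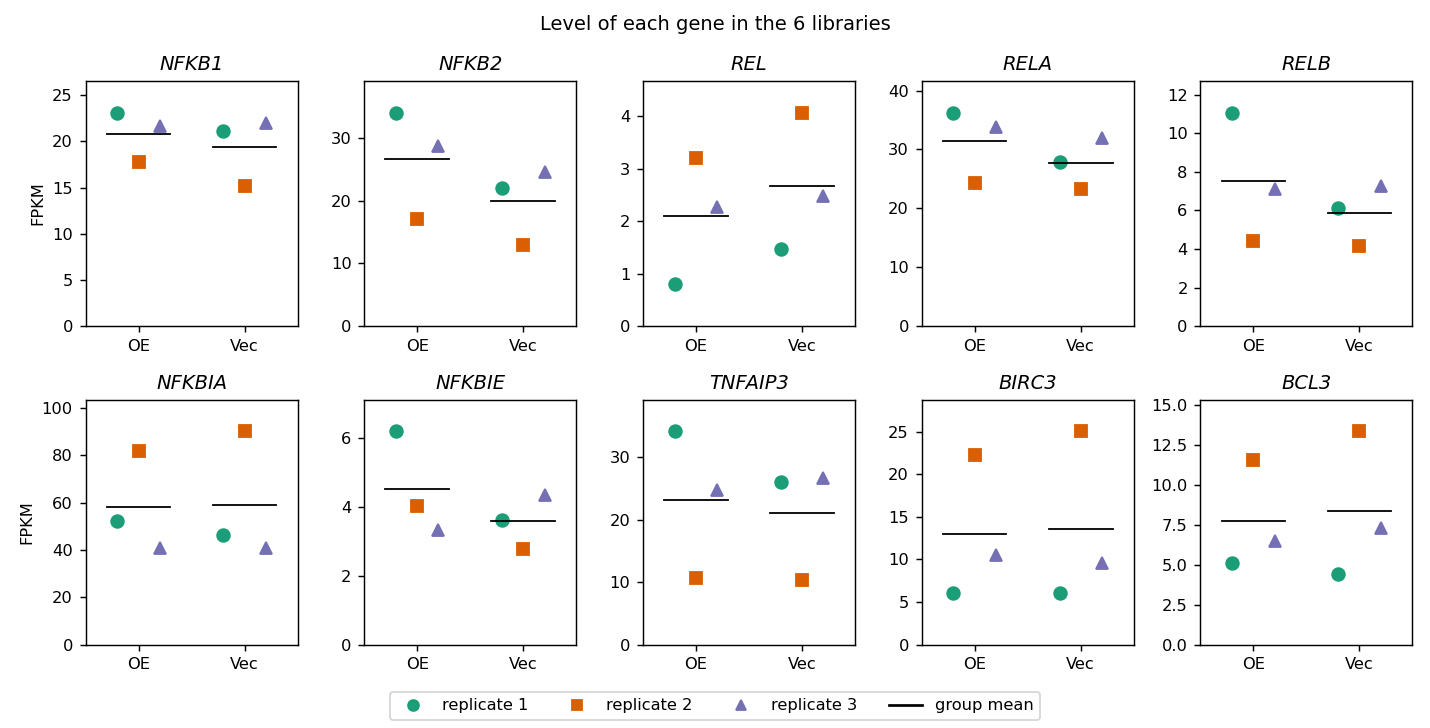
FPKM of each of the 10 genes in the 3 OE and 3 Vec libraries, with a separate scale for each gene. Points are libraries, marked by replicate number, and lines are group means. OE and Vec overlapped for all 10 genes, and replicate 2 was at the low or the high end in both groups for all but NFKBIE.

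None of the 10 genes was called between OE and Vec. By limma with group as the only term 0 of the 10 passed, with an adjusted p of 1.0 for each, and 0 of the 10 had an unadjusted p under 0.05, while 0% of the 12064 loci were called and 0.539% had an unadjusted p under 0.05. Same-numbered libraries of the groups varied together, so the fit was repeated with replicate number as a block. That fit called 0 of the 10, against 0.0995% of all loci, and 1 of the 10, NFKB2, had an unadjusted p under 0.05, against 7.19% of all loci. For none of the 10 were the ranges of OE and Vec apart, against 3.34% of all loci. NFKB2 and RELA were higher in OE in 3 of 3 pairs of same-numbered libraries, which 16.5% of all loci were, and REL was lower in 3 of 3 pairs, which 11.9% were. On average 7 of the 10 were higher in OE, with a median log2 fold change of 0.11, and 58.1% of all loci were higher, with a median of 0.03.

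NFKB2 had the highest log2 fold change, 0.40 (SE 0.32 without and 0.10 with the block, 95% interval 0.16 to 0.63 with the block, limma adjusted p = 0.388 with the block). Its ratios of OE to Vec were 1.54, 1.32 and 1.17 in pairs 1, 2 and 3. REL gave -0.27 (SE 0.13 with the block, 95% interval -0.56 to 0.02, limma adjusted p = 0.718), with pair ratios of 0.549, 0.787 and 0.916. RELB gave 0.26 and NFKBIE 0.25, and neither was higher in all pairs: the ratios of RELB and NFKBIE were 1.80 and 1.70 in pair 1, and 0.980 and 0.762 in pair 3. NFKBIA, the usual feedback readout, gave 0.01 with a 95% interval of -0.21 to 0.22 in the block fit, and BIRC3 gave -0.02 (-0.25 to 0.21). TNFAIP3 gave 0.11 (-0.14 to 0.36), BCL3 -0.06 (-0.31 to 0.19), RELA 0.17 (-0.05 to 0.39) and NFKB1 0.10 (-0.11 to 0.32). These intervals are not adjusted for the number of genes and rest on pairing by replicate number, which the labels do not state. Without the block they were wider, at -0.85 to 0.87 for NFKBIA, -1.40 to 1.35 for BIRC3 and -1.06 to 1.28 for TNFAIP3.

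GC content moved with pair 1. Spearman's rho between GC content and the log2 ratio of OE to Vec was 0.528 in pair 1, 0.107 in pair 2 and -0.09 in pair 3. It was taken across 11166 tested genes of known GC content, and genes do not stand as replicates. RELB, NFKB2, RELA and NFKBIE transcripts have a median GC content of 65.2%, 62.1%, 61.8% and 61.0%, and REL and BIRC3 of 39.0% and 38.8%. BCL3 has the highest, 65.9%. After each library was corrected for GC content and length, the block fit gave log2 fold changes of 0.12 for RELB, 0.28 for NFKB2, 0.06 for RELA, 0.15 for NFKBIE and -0.23 for REL, with adjusted p between 0.344 and 0.845. RELB, RELA and NFKBIE thus moved toward 0 by over 1.5 times. BCL3 moved away from 0, to -0.20 after correction against -0.06 before, and NFKBIA moved to -0.06, against 0.01 before. NFKB1 gave 0.09, TNFAIP3 0.09 and BIRC3 0.01.

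**Figure D3:**
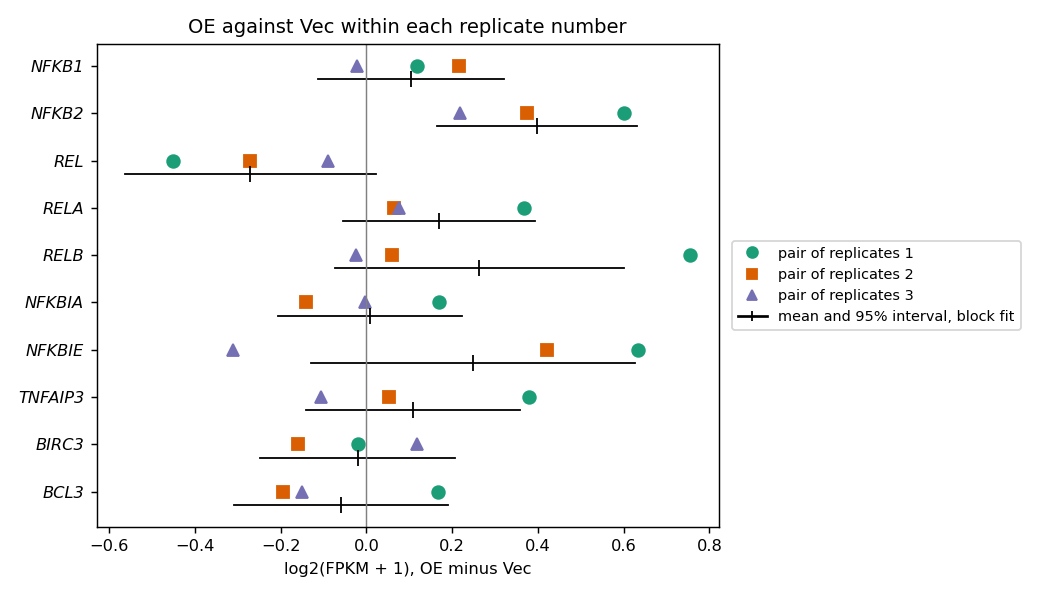
Difference in log2(FPKM + 1), OE minus Vec, within each pair of same-numbered libraries (points) for the 10 genes. Black lines are the mean with the 95% interval of the block fit, not adjusted for the number of genes. NFKB2 and RELA lie above 0 and REL below 0 in all 3 pairs, and RELB and NFKBIE spread the most, with pair 1 highest.

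Replicate number, which the labels do not explain, separated 9 of the 10 genes. Each number stands for 1 OE and 1 Vec library, and the F test of replicate number with group as a further term (limma) called 9 of the 10, all but NFKBIE, against 46.5% of all loci. RELA, RELB, NFKB1, NFKB2 and TNFAIP3 were below, and REL, NFKBIA, BCL3 and BIRC3 above, in both libraries numbered 2 relative to the other 4 libraries. That is 5 of 10 below and 4 of 10 above, where 25.7% of all loci were below, 35.9% above and 61.6% one or the other. The split of the libraries numbered 2 was known from earlier results of these data, so the contrasts of all 3 pairs of numbers are given.

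BIRC3 had the largest difference of the 10 between number 2 and number 1, with log2 1.80 (SE 0.12, limma adjusted p = 8.97e-06), and log2 1.16 between number 2 and number 3 (adjusted p = 0.00018). TNFAIP3 differed about as far in the other direction, with -1.42 against number 1 (SE 0.14, adjusted p = 4.96e-05) and -1.22 against number 3 (adjusted p = 0.000227). BCL3 was higher in number 2 by 1.22 against number 1 and 0.76 against number 3 (adjusted p = 0.000107 and 0.00236), and NFKBIA by 0.79 and 1.06 (adjusted p = 0.00051 and 0.000214). REL was the only subunit gene on this side. It was higher by 1.12 against number 1 (adjusted p = 0.000395), and its difference of 0.45 against number 3 missed the threshold (adjusted p = 0.0505). NFKB2 was lower in number 2, at -0.83 against number 1 and -0.79 against number 3 (adjusted p = 0.000583 and 0.00142). The other subunit genes apart from REL were lower in number 2 as well. RELB, NFKB1 and RELA gave -0.81, -0.41 and -0.40 against number 1 and -0.63, -0.39 and -0.45 against number 3 (adjusted p = 0.00506 to 0.0282). NFKBIE, which was not called, gave -0.41 and -0.14. Number 2 was thus higher than number 1 for 4 of the 10 and lower for 5, where all loci had 29.5% higher, 20.7% lower and 50.2% either way. Against number 3 it was higher for 3 and lower for 5, where all loci had 20.8% higher, 15.3% lower and 36.1% either way.

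The calls of the weaker 3 did not all hold when single libraries were left out. RELA lost its call against number 1 without OE replicate 1 (-0.25, adjusted p = 0.156) or OE replicate 2 (-0.32, adjusted p = 0.183), and its call against number 3 without OE replicate 2 (adjusted p = 0.145), OE replicate 3 (0.052) or Vec replicate 3 (0.149), all by limma. NFKB1 lost its call against number 1 without Vec replicate 2 (-0.33, adjusted p = 0.204) and that against number 3 without OE replicate 2 (0.0591), OE replicate 3 (0.0615), Vec replicate 2 (0.308) or Vec replicate 3 (0.251). RELB moved to -0.44 against number 1 without OE replicate 1, still called (adjusted p = 0.0345), and lost its call against number 3 without OE replicate 2 (adjusted p = 0.0874) or Vec replicate 3 (-0.42, adjusted p = 0.249). The calls of NFKB2, TNFAIP3, NFKBIA, BIRC3 and BCL3 in these contrasts, and of REL against number 1, held with each of the 6 libraries left out. After GC and length correction the F test again called 9 of the 10, against 53.3% of the loci so corrected, with BIRC3 at 1.67, TNFAIP3 at -1.44, REL at 0.89 and NFKB2 at -0.85 against number 1.

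Numbers 3 and 1 were closer. None of the 10 genes was called between them by limma, against 0.547% of all loci, and 4 of the 10 had an unadjusted p under 0.05, against 18.9% of all loci. The 4 were REL, at log2 0.67 (adjusted p = 0.103), BIRC3 at 0.65 (adjusted p = 0.0601), BCL3 at 0.46 (adjusted p = 0.148) and NFKBIA at -0.27 (adjusted p = 0.260). With only the libraries numbered 3 and 1, 2 per number, BIRC3 and REL passed (limma adjusted p = 0.00488 and 0.0309), where 451 of the 12064 loci were called. BIRC3 also passed under TPM (adjusted p = 0.0434), under a filter on a mean of at least 5 (0.0371) and without OE replicate 2 (0.00348), Vec replicate 2 (0.0036) or Vec replicate 1 (0.05, just under the threshold). REL likewise passed without OE replicate 2 (0.0254) or Vec replicate 2 (0.0272). The share of all loci passing in this contrast was not computed under these other settings. After GC and length correction REL, BIRC3, BCL3 and NFKBIA gave 0.52, 0.56, 0.51 and -0.22 for number 3 against number 1. Spearman's rho between GC content and the log2 ratio of replicate 3 to replicate 1 was -0.409 in OE and 0.106 in Vec. REL and BIRC3 have the lowest GC content of the 10 genes, and its part in these differences was not tested.

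**Figure D4:**
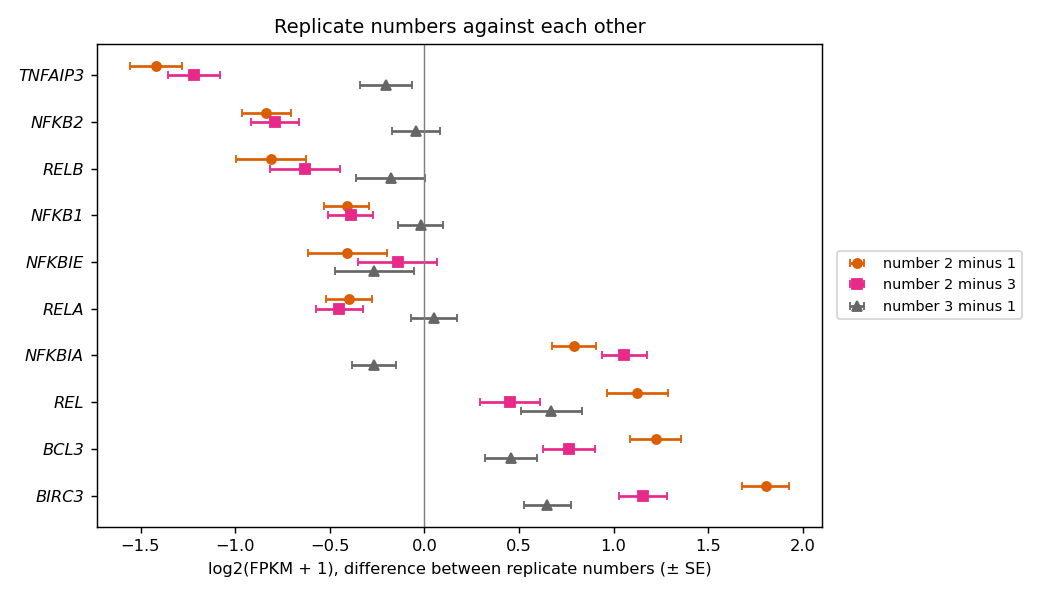
Difference in log2(FPKM + 1) between replicate numbers for the 10 genes, with SE, from the fit with group as a further term. TNFAIP3 at -1.42 and BIRC3 at 1.80 bound the differences of number 2 against number 1, and number 3 against number 1 stays between -0.27 and 0.67.

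By root mean square difference of centred log2 values over the 6 libraries, the 5 genes nearest NFKBIA were ZBTB25 (0.0462), E2F2 (0.0624), C15orf62 (0.0673), MCOLN3 (0.0692) and ZBED10P (0.0694). ZBTB25 read 3.37, 5.66 and 2.51 FPKM in OE replicates 1, 2 and 3, and 3.07, 6.31 and 2.64 FPKM in Vec replicates 1, 2 and 3, which shows number 2 highest and number 3 lowest as in NFKBIA. No other of the 10 genes came near it. BCL3 was closest of them, at 0.301 and rank 1799 of 11165 genes, and TNFAIP3 farthest, at 1.06 and rank 11031.

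Other genes of the pathway were likewise not called between OE and Vec. Those tested were 4 other IkB genes, 9 of 22 ligand and receptor genes and 25 adaptors, ubiquitin ligases and kinases. The rest were 11 further regulators, most of them negative, and 18 of 24 target genes. Of all these, 0 passed in either fit. Unadjusted p were under 0.05 in 0 of them without the block and, with the block, in 0, 0, 4, 1 and 1 genes of these lists in that order, where 7.19% of all loci had one. Among those with the smallest unadjusted p were RNF31 and SHARPIN, subunits of the linear ubiquitin ligase that activates the IkB kinase. RNF31 read 13.8, 13.4 and 11.7 FPKM in OE replicates 1, 2 and 3, and 8.67, 11.1 and 11.2 FPKM in Vec replicates 1, 2 and 3 (log2 fold change 0.31, block adjusted p = 0.632, limma). Its groups did not overlap, which held for 1 of the 25 genes of its list and for 3.34% of all loci. SHARPIN gave 0.29 (block adjusted p = 0.617), TRADD, an adaptor of the tumor necrosis factor receptor, 0.26 (0.719), and PDLIM2, a ligase for nuclear RELA, 0.23 (0.687). The ribonuclease ZC3H12A, whose groups did not overlap either, gave 0.19 and TNIP1, a partner of TNFAIP3, also 0.19 (both 0.735). TLR4 gave 0.23 (0.792), IL1RAP -0.11 (0.832) and IL1B 0.14 (0.809). Of the targets, the chemokine CCL20 gave 0.37 (0.781), TNFAIP8 0.30 (0.725) and the cytokine LIF 0.17 (0.781). On average 17 of the 18 tested targets were higher in OE, with a median log2 fold change of 0.17, where 58.1% of all loci were higher, with a median of 0.03. This was not tested, and 4 of the 18 were higher in 3 of 3 pairs, against 16.5% of all loci. NFKBID gave 0.16, NFKBIZ -0.15 and NFKBIL1 0.08. After GC and length correction several of these were over 1.5 times smaller, with SHARPIN at 0.16, TRADD at 0.13, PDLIM2 at 0.10, ZC3H12A at 0.09, TNIP1 at 0.11, LIF at 0.09 and NFKBID at 0.04, and NFKBIL1 turned to -0.05. RNF31 gave 0.22, CCL20 0.40 and TNFAIP8 0.32. Among the targets, CCL5, ICAM1, TNFAIP2 and BCL2L1 turned below 0 after correction, at -0.02, -0.04, -0.08 and -0.08. CFLAR, already below 0, gave -0.09, and the other tested targets stayed above 0.

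Between replicate numbers the target genes also differed in both directions. The F test called 13 of 18 tested targets (limma), against 46.5% of all loci, and number 2 was higher for 5 and lower for 8 of the 18, both against number 1 and against number 3. All loci had 29.5% higher and 20.7% lower against number 1, and 20.8% higher and 15.3% lower against number 3. IL6, the inflammatory cytokine, read 15.2 FPKM in OE replicate 2 and 10.9 FPKM in Vec replicate 2, against 52.5 to 60.9 FPKM in the libraries numbered 1 and 3 (log2 -2.09 against number 1, adjusted p = 4.29e-06). CSF2, a colony-stimulating factor, read 9.20 and 6.03 FPKM in OE and Vec replicate 2, against 29.4 to 42.9 FPKM in the other 4 (-2.23, adjusted p = 2.01e-05), and IER3, an early response gene, 49.0 and 36.9 FPKM against 101 to 135 FPKM (-1.30, adjusted p = 3.45e-05). CXCL8, a neutrophil chemokine singled out after its values were seen, was also lower in number 2 (-1.52, adjusted p = 0.000327). The 5 higher targets, named by their count, were TNFAIP2 (1.60), CCL5 (1.50), TNFAIP8 (1.27), SDC4 (0.89) and the adhesion molecule ICAM1 (0.74), with adjusted p between 2.38e-05 and 0.00134 against number 1. Of the 24 targets listed, CXCL1, CCL2, VCAM1, SELE and BCL2A1 were too low to test, and SOD2, listed under several identifiers, was not used.

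Ligands and receptors were also divided. Of 9 tested, 8 were called by the F test, against 46.5% of all loci. IL1A, an epithelial alarm cytokine, read 16.0 FPKM in OE replicate 2 and 17.8 FPKM in Vec replicate 2, against 55.8 to 60.4 FPKM in the other 4 libraries (log2 -1.71 against number 1, limma adjusted p = 6.26e-06). TNFRSF12A, the receptor for TWEAK, was lower in number 2 by -1.58 (adjusted p = 1.92e-05), while TNFRSF1A, the main tumor necrosis factor receptor of epithelial cells, was higher by 0.92 (adjusted p = 0.000175), at 117 FPKM in OE replicate 2 and 123 FPKM in Vec replicate 2 against 59.1 to 67.0 FPKM. TNF did not exceed 0.119 FPKM and LTA and LTB did not exceed 0.539 FPKM. Of 25 adaptors, ligases and kinases, 8 (32%) were called by replicate number, a smaller share than the 46.5% of all loci. After GC and length correction 12 of the 25 were called, against 53.3% of the loci so corrected. TANK, an adaptor of the kinases TBK1 and IKBKE, was higher in number 2 by 1.16 (adjusted p = 0.0001). IRAK4, a kinase of the interleukin-1 receptor, was higher by 0.65 (adjusted p = 0.00465). MAP3K14, the kinase of the noncanonical branch, was lower in number 2 than in number 3 by -0.54 (adjusted p = 0.0189). Against number 1 it was not called, at 0.21 (limma adjusted p = 0.263), and it was highest in number 3 of each group. Among the further regulators, most of them negative, 5 of 11 (45.5%) were called, near the 46.5% of all loci. NLRC5 was higher in number 2 than in number 1 by 1.03 and the deubiquitinase OTULIN by 0.46. BTRC, listed with them although it is the ligase that marks IkB for degradation, was higher by 0.54. NFKBIB, an IkB of the canonical branch, was lower in number 2 by -1.13 (adjusted p = 0.000135), and NFKBIZ, a nuclear IkB, higher by 1.13 (adjusted p = 0.000391). NFKBIL1 was called by the F test (adjusted p = 0.0434), with 0.52 for number 2 against number 3 (adjusted p = 0.0246), while its 0.36 against number 1 was not called.

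**Figure D5:**
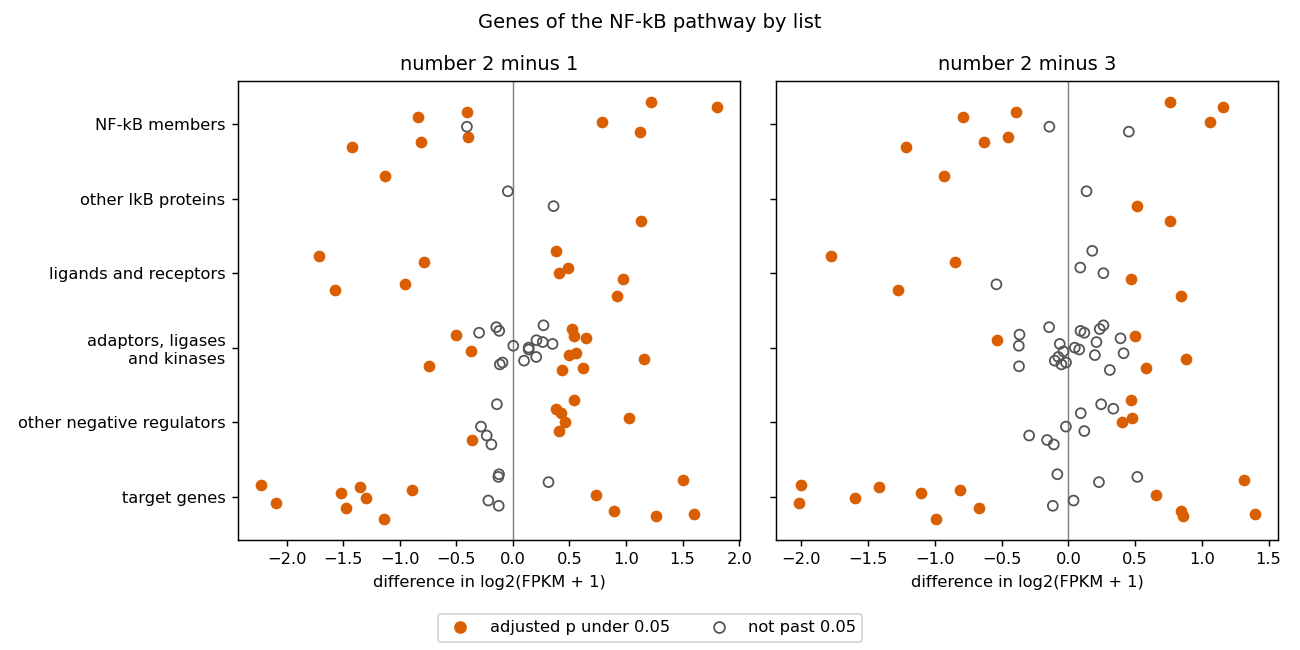
Difference in log2(FPKM + 1) of number 2 against number 1 (left) and number 3 (right) for the tested genes of each pathway list. Filled points have an adjusted p under 0.05, and height within a row only spreads the points. Targets, with 8 lower and 5 higher, and the 10 NF-kB genes, with 5 lower and 4 higher against number 1, lie on both sides of 0.

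COL1A1 and some salivary and epithelial markers stood at other levels in the libraries numbered 2, where 61.6% of all loci lay above or below the other 4. CD68, the 1 leukocyte marker tested, was not called by replicate number. Of the fibroblast and endothelial markers only COL1A1 was tested. Among the rest, PECAM1, COL3A1, PDGFRB, CDH5 and VWF were also above the other 4 libraries, while DCN, LUM and CLDN5 overlapped with them. The 5 fibroblast markers summed to 8.90 FPKM in OE replicate 2 and 11.3 FPKM in Vec replicate 2, against 3.07 to 4.71 FPKM in the other 4 libraries, nearly all of it COL1A1, with COL3A1 at no more than 0.0901 FPKM. The 4 endothelial markers summed to 1.78 and 1.96 FPKM in OE and Vec replicate 2, against 0.272 to 0.608 FPKM, mostly PECAM1, with CDH5 at 0.138 FPKM or less. The 6 leukocyte markers summed to 6.49 to 10.8 FPKM in OE and 7.19 to 8.04 FPKM in Vec, nearly all CD68, with PTPRC, CD3E, LST1 and TYROBP listed at 0 throughout. Salivary markers summed to 368 and 311 FPKM in OE and Vec replicate 2 against 460 to 712 FPKM, as KRT7 was lower and KRT14 and TP63 were higher. Of the epithelial markers, CDH1 read 20.1 and 21.3 FPKM in OE and Vec replicate 2, against 8.61 to 14.6 FPKM in the other 4 libraries (log2 1.13 against number 1, limma adjusted p = 6.86e-05), and KRT8 was lower by -0.33 (adjusted p = 0.0359). Their part in the differences between replicate numbers was not tested.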

How the data were processed

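Gene expression was measured by mRNA sequencing in 6 libraries, grouped by title. Per the labels' protocols, RNA came from a TRIzol extraction and was made into libraries with a NEBNext Ultra kit. HISAT2 and GRCh38 appear in the submitters' processing notes without a role. No counting tool, annotation or strand setting is given there. The deposited values are FPKM, computed by the authors for 27328 loci, of which 19974 have Ensembl identifiers (all found in GENCODE release 29) and 7354 are new loci. Since FPKM is relative to a library's total, a few abundant loci can move the rest: the 10 most abundant took 9.36% to 13.1% of the sum.

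The log2(FPKM + 1) values of loci past the filter went into limma 3.58.1 (R 4.3.3), with 2-sided moderated tests, a variance trend and Benjamini-Hochberg adjustment. This scale understates changes of low genes. Deviations from the group means correlated across genes at 0.725, 0.881 and 0.529 between same-numbered libraries, each above the limit of 0.1, so the block fit treats them as pairs. That rests on the data, not the labels, and libraries numbered 1 and 3 also correlated across groups (0.412 and 0.424). Replicate number was tested by an F test and by contrasts. The smallest p of an exact permutation test on 3 and 3 libraries is 0.1.

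The genes, the pathway lists and the tests were chosen with earlier results of these data known. Beyond the 10 genes, the rule named MYBL1 and CD44, up to 3 genes per list by the smallest unadjusted p in each comparison, and the 5 genes nearest NFKBIA. CD44, named in the series title, had 154 ± 14.1 FPKM in OE and 120 ± 5.87 FPKM in Vec (SD, n = 3 each) and was not called (limma adjusted p = 0.445 with the block). Alternatives were a pseudocount of 0.1, other filters, TPM, quantile scaling, no trend, the block, GC and length correction, and leaving out libraries. GC content is the median over a gene's transcripts. Promoters are RefSeq's, on GRCh38.p14.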

Additional observations from a re-analysis of the deposited data

How the results depend on the processing

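No alternative called any of the 10 genes between OE and Vec. Loci called between OE and Vec numbered 0, against 12 with the replicate block, 2 with the replicate block and GC and length correction, and 10 without replicate 2 of both groups, an alternative added after seeing the data. Leaving out single libraries gave 0 to 1, and the replicate block without replicate 1, 2 or 3 of both groups gave 14, 148 and 22, so the range was 0 to 148. By replicate number, 5605 loci were called, 3389 with no filter on low values, 451 without replicate 2 of both groups and 3663 to 6174 with a library left out. Of the 10 genes 9 were called, 2 (REL and BIRC3) without replicate 2 of both groups, and 7 to 9 with a library left out. With no filter, all loci above 0 in any library were tested, a larger set that leaves out only 4173 of the 27328 loci. In this set 3389 loci and 6 of the 10 genes were called by replicate number. In that fit RELA and RELB lost both calls for number 2 (limma adjusted p = 0.0621 to 0.145) and NFKB1 that against number 3 (0.0647). NFKBIE was called against number 1 under quantile scaling (-0.68), GC and length correction (-0.49) and without Vec replicate 1 (-0.70). REL was called against number 3 with no trend, or without OE or Vec replicate 1.

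Differences near 0 changed sign. For OE minus Vec, NFKBIA gave -0.012 under TPM, -0.042 under quantile scaling, -0.0598 with the replicate block and GC and length correction, and -0.072 with the block without replicate 1 of both groups, where TNFAIP3 gave -0.025. BIRC3 gave 0.011 with the block and GC and length correction, and without replicate 2 of both groups BIRC3 gave 0.049 and BCL3 0.0087, with or without the block. For number 3 minus 1, NFKB1 gave 0.018 under TPM, and NFKB2 0.0099 under quantile scaling and 0.017 under GC and length correction. With libraries left out, log2 OE minus Vec ranged over -0.057 to 0.21 for NFKB1, -0.53 to 0.074 for REL, -0.024 to 0.56 for RELB, -0.26 to 0.35 for NFKBIA, -0.32 to 0.56 for TNFAIP3, -0.48 to 0.51 for BIRC3 and -0.40 to 0.31 for BCL3. Number 2 minus 3 ranged over -0.56 to 0.28 for NFKBIE. Number 3 minus 1 ranged over -0.11 to 0.076 for NFKB1, -0.20 to 0.11 for NFKB2, -0.10 to 0.20 for RELA, -0.55 to 0.19 for RELB and -0.68 to 0.15 for NFKBIE. The cause of these changes was not tested. Depth is unknown, so counting error could not be set beside low values such as those of REL.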
